A study of Danio rerio with 12 samples.

Results

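The genes described here are 10 named neighbours of mycn on its chromosome that had differed between mycn mutant and wild-type zebrafish embryos at 48 or 72 hours post fertilization (hpf). They are acat2, cep57l1, rock2b, henmt1, fam102bb, atf6, mettl11b, slc25a24, sccpdhb and vsnl1a. They stand on 11 rows of a table of 31465 genes, because 2 Ensembl genes carry the symbol rock2b. All 11 rows were among the 21068 genes tested. The differences between genotypes chose these genes, so their values at each age are given below as a description. Genotype calls and adjusted p-values of members repeat the comparison that chose them. They show how a call depends on the fit and are no new evidence of a difference.

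The series holds 12 libraries of total RNA from zebrafish embryos, with 3 in each of 4 groups. Wild-type embryos of strain AB were collected at 48 hpf and at 72 hpf, and embryos of a strain labelled only as Mycn mutant at the same ages. All were raised in 0.3X Danieau buffer. No label names the allele, the strain in which it is kept or the number of embryos per library. The p-values therefore cover the spread among these libraries alone, and that spread may be technical.

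mycn codes for a Myc family transcription factor that drives growth and protein synthesis in dividing cells. Alleles of genes that lie close to a selected mutation are inherited together with it, so a mutant line and its control can differ in many genes of that stretch besides the mutated one. Such alleles can differ in RNA level, or in how well their reads match the reference genome. Counts per gene hold no sequence variants, so whether the members carry linked variants was not tested.

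Library totals lay between 14793715 and 19732340 counts. Levels are given as CPM, the count rate of a gene in its library after TMM scaling, and 3 counts in a library were worth 0.151 to 0.216 CPM. Of 45 marker genes of 9 tissues and cell types of the embryo, from muscle and neuron to gut and germ line, every one had reads in at least 1 library. At 48 hpf the summed level of 5 erythroid markers was lower in the mutant-labelled libraries without overlap, at 2462 to 3803 CPM against 6222 to 9629 CPM in wild type, with 1 of the 5 called. The 5 exocrine pancreas markers also stood apart at that age, at 8.13 to 10.7 against 10.9 to 13.5 CPM. The sums of the other 7 lists overlapped at 48 hpf and those of all 9 at 72 hpf, although single markers were called. At 72 hpf 3 of the 5 enterocyte markers were called lower, against 0.422% of all tested genes, and no marker of another list. At 48 hpf 1 lens and 1 epidermis marker were called higher, and 1 hepatocyte and 1 exocrine pancreas marker lower. The part of such shifts in the members' differences was not tested. mycn RNA was higher in the libraries labelled mutant, with 71.2, 90.1 and 60.8 CPM in wild-type and 203, 213 and 251 CPM in mutant-labelled libraries at 48 hpf. At 72 hpf it stood at 76.4, 75.6 and 79.8 against 158, 158 and 141 CPM. The label says mutant and the RNA rose, so the libraries are called mutant-labelled below and each direction rests on the labels. In RNA of whole embryos, fewer cells of a type and less RNA per cell cannot be told apart.

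In the gene order of RefSeq assembly GRCz12tu, mycn lies on chromosome 20 and the members spread over both its sides. acat2 was the 30th and cep57l1 the 14th tested gene on one side. On the other side came the 2 rows of rock2b at places 6 and 7, then henmt1 at 10, fam102bb at 11, atf6 at 13, mettl11b at 32, slc25a24 at 37, sccpdhb at 48 and vsnl1a at 56. Both rock2b rows were matched by symbol to the same gene of that assembly, so their separate places are not observed. Later places count both rows. The stretch from acat2 to vsnl1a held 87 tested genes with a place in that order, of which 75 were neither members nor mycn. The reads were placed on build GRCz11 per the submitters' processing notes, so only the order of genes is used from the newer assembly. In that assembly henmt1 and fam102bb overlap, as do rock2b and ak9, and sccpdhb and cnstb. Strand use in counting is not given, so reads in these overlaps cannot be assigned to one gene with certainty.

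A gene was called at an adjusted p under 0.05 in edgeR's quasi-likelihood test over all genes. At 48 hpf 7 of the 11 rows were called, 4 higher and 3 lower, against 3.04% of all tested genes, or 1.04% higher and 2.0% lower. At 72 hpf 5 were called, 4 higher and 1 lower, against 0.555% of all tested genes, or 0.133% higher and 0.422% lower. The members were chosen by these calls, so nothing is read from the counts. Over all tested genes 3.52% were called at either age, 0.0807% at both, and 0.0665% at both in the same direction. cep57l1 and the smaller row of rock2b were called at both ages. fam102bb, atf6, slc25a24, sccpdhb and vsnl1a were called only at 48 hpf, and acat2, henmt1 and mettl11b only at 72 hpf, and whether the ages differ was not tested. The libraries of the genotypes did not overlap for 8 of the 11 rows at 48 hpf and for 9 at 72 hpf, against 16.8% and 20.1% of all tested genes. The larger row of rock2b was called at neither age.

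Among genes higher in the mutant-labelled libraries at both ages was cep57l1, which encodes a centrosomal protein related to CEP57. At 48 hpf its level was 17.4, 14.3 and 13.4 CPM in wild-type and 21.1, 22.5 and 22.1 CPM in mutant-labelled libraries (log2 fold change 0.54, SE 0.13). At 72 hpf it was 6.96, 5.88 and 6.62 against 11.9, 10.3 and 13.7 CPM (log2 fold change 0.88, SE 0.14). Every mutant-labelled library lay above every wild-type library of its age. The call at 48 hpf was near the threshold and held in 3 of 12 fits that each left out 1 library (edgeR adjusted p from 0.0222 to 0.0975). It was also lost when that age was fitted alone (edgeR adjusted p = 0.158). Among 13 genes of the centriole and centrosome, 0 were called at either age by edgeR. At an unadjusted p under 0.05 there were 2 higher at 48 hpf and 0 at 72 hpf, DESeq2 called 1 higher at 48 hpf, and limma-voom called 0. Over all tested genes 17.3% had an unadjusted p under 0.05 at 48 hpf, 7.94% higher and 9.41% lower. At 72 hpf 7.75% did, 3.67% higher and 4.08% lower. The counts without adjustment in the lists below are to be read against these shares. The related gene cep57, on another chromosome, stood at mean levels of 3.62 and 3.17 CPM at 48 hpf in wild-type and mutant-labelled libraries, and at 2.03 and 2.19 CPM at 72 hpf.

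The 2 rows of rock2b behaved differently. The smaller one (ENSDARG00000096433), which the gene name table at hand calls si:dkey-65b13.11, held 24, 23 and 31 counts in wild-type and 48, 49 and 79 in mutant-labelled libraries at 48 hpf. At 72 hpf it held 22, 18 and 28 against 84, 56 and 71 counts. The groups did not overlap at either age, and the log2 fold changes were 1.24 (SE 0.27) and 1.65 (SE 0.27). Of 12 fits that each left out 1 library, 10 kept the call at 48 hpf and 8 that at 72 hpf. The 48 hpf call was lost when that age was fitted alone (edgeR adjusted p = 0.12).

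The larger row of rock2b (ENSDARG00000004877) overlapped between genotypes at both ages. It stood at 26.5 ± 3.75 and 28.7 ± 6.10 CPM at 48 hpf in wild-type and mutant-labelled libraries (SD, n = 3 each), and at 26.4 ± 2.41 and 25.2 ± 2.72 CPM at 72 hpf. Of the reads of both rows together, the smaller row took 5.76% ± 1.01 in wild-type and 11.6% ± 0.308 in mutant-labelled libraries at 48 hpf. At 72 hpf it took 4.39% ± 0.996 and 13.1% ± 1.64 (SD, n = 3 each). The lowest mutant-labelled share, 11.3%, was above the highest wild-type share, 6.67%. The difference thus lay in one of the 2 annotated genes, and the sum of both was 28.1 ± 3.73 and 32.4 ± 7.01 CPM at 48 hpf and 27.6 ± 2.38 and 29.0 ± 3.41 CPM at 72 hpf.

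**Figure D1:**
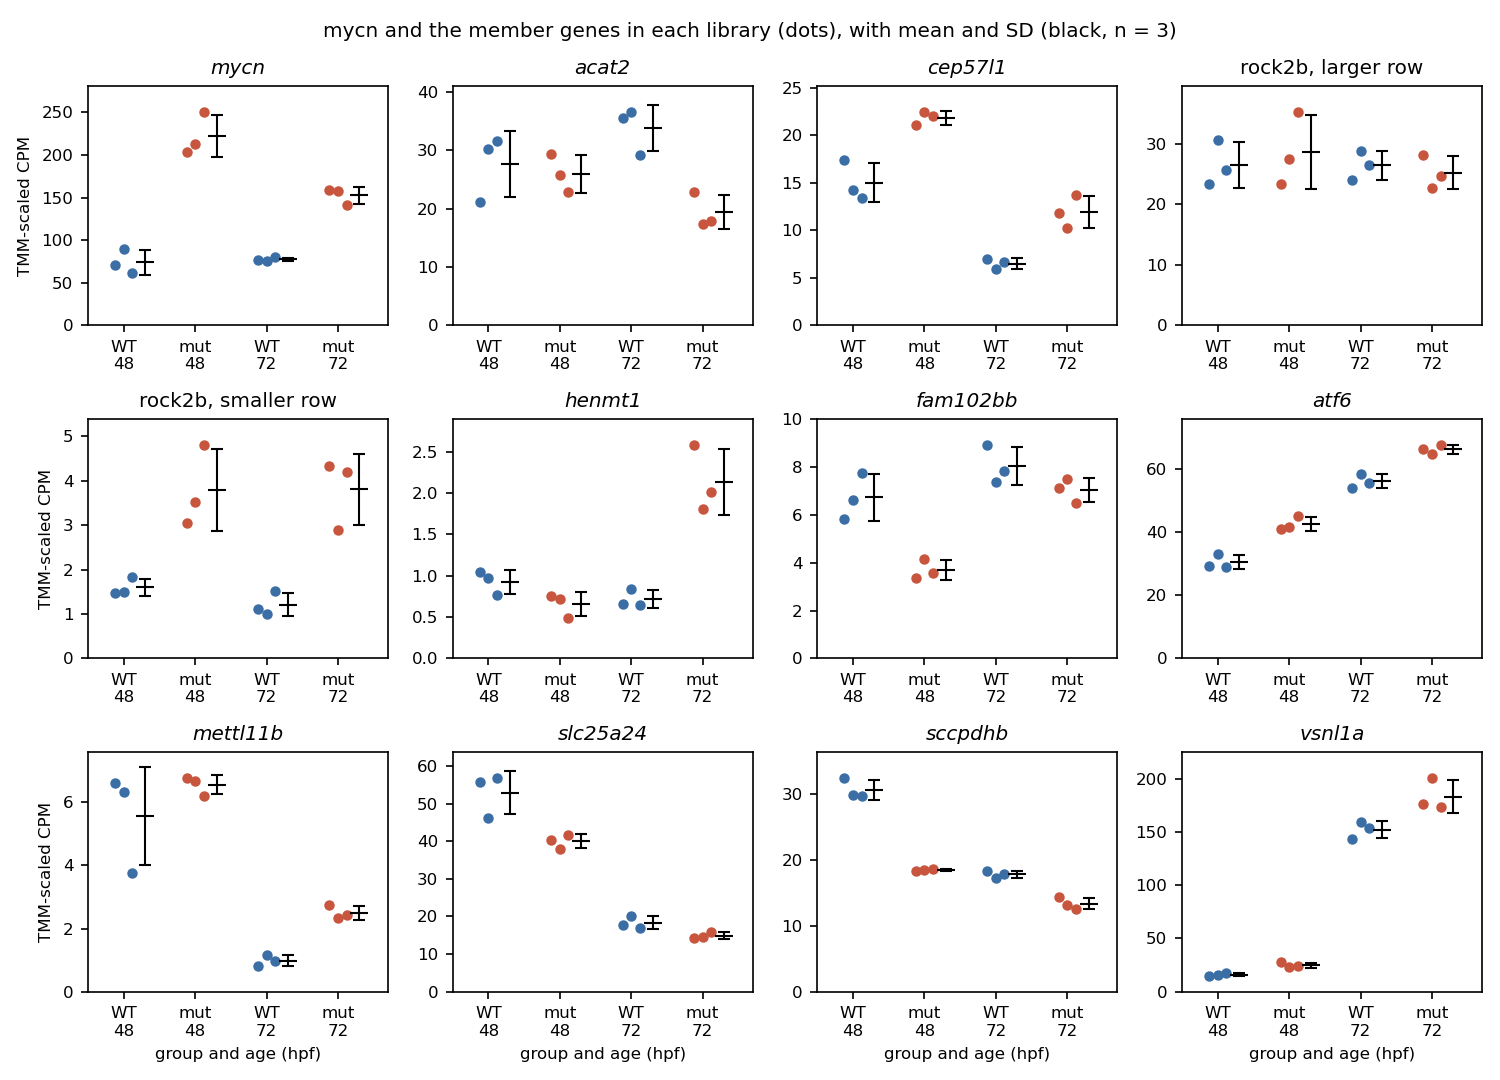
TMM-scaled CPM (vertical axes, linear, from 0) of mycn and the 11 member rows in each library (dots), by group and age in hpf, with the mean and SD over 3 libraries in black. WT is wild type and mut is mutant-labelled; in cep57l1, henmt1, atf6, slc25a24, sccpdhb, vsnl1a and the smaller rock2b row the genotypes do not overlap at either age, and the larger rock2b row overlaps at both.

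atf6 encodes a transcription factor held in the membrane of the endoplasmic reticulum, which is cut free when unfolded proteins gather there and then induces chaperone genes. At 48 hpf it stood at 29.4, 32.9 and 29.0 CPM in wild-type and 40.9, 41.4 and 45.1 CPM in mutant-labelled libraries (log2 fold change 0.48, SE 0.09). By 72 hpf levels were 54.0, 58.4 and 55.7 against 66.2, 64.6 and 67.6 CPM (log2 fold change 0.24, SE 0.09). The genotypes did not overlap at either age, although only the 48 hpf difference was called. Of 29 genes of the unfolded protein response, edgeR called 1 higher and 0 lower at 48 hpf, with a median log2 fold change of 0.13 against -0.0026 over all genes. Without adjustment 8 of the 29 had a p under 0.05, all of them higher, against 7.94% higher over all tested genes, DESeq2 called 2 higher and limma-voom 1. The gene called was pdia6, a protein disulfide isomerase of the endoplasmic reticulum, which itself lies in the stretch near mycn. At 72 hpf edgeR, DESeq2 and limma-voom called 0 of the 29, and without adjustment 1 in each direction had a p under 0.05.

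vsnl1a encodes a visinin-like protein, a calcium sensor of neurons. Its level was 14.9, 15.9 and 17.3 CPM in wild-type and 27.7, 23.4 and 23.7 CPM in mutant-labelled libraries at 48 hpf (log2 fold change 0.64, SE 0.11). At 72 hpf it was 144, 159 and 154 against 176, 200.7 and 173 CPM (log2 fold change 0.27, SE 0.10). Every mutant-labelled library lay above the wild-type ones of its age. The summed level of 5 neuron markers overlapped between genotypes at both ages, with 457 to 574 against 473 to 622 CPM at 48 hpf and 1114 to 1143 against 1141 to 1235 CPM at 72 hpf. None of these 5 markers was called for genotype. snap25a, one of the 5, lies in the stretch itself, at place 47. The part of neuron content in the difference was not tested. The related gene vsnl1b on another chromosome was not called, with means of 10.3 and 14.0 CPM at 48 hpf and 77.3 and 84.5 CPM at 72 hpf.

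mettl11b, also named ntmt2, encodes a methyltransferase of protein N-termini. At 48 hpf the genotypes overlapped, with 6.61, 6.31 and 3.77 CPM in wild-type and 6.77, 6.69 and 6.21 CPM in mutant-labelled libraries (log2 fold change 0.24, SE 0.21). At 72 hpf wild-type libraries held 16, 21 and 18 counts and mutant-labelled ones 53, 45 and 41. This gave 0.984 ± 0.185 and 2.49 ± 0.216 CPM as mean and SD of 3 libraries (log2 fold change 1.34, SE 0.27). The call at 72 hpf held in 5 of 12 fits that each left out 1 library (edgeR adjusted p from 0.005457 to 0.1925). The related ntmt1 was not called, with means of 24.4 and 26.0 CPM at that age.

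henmt1 encodes the enzyme that methylates the 3′ ends of piRNAs, small RNAs that silence transposons in the germ line. It had few counts in all groups and was the single member whose libraries stood apart in opposite directions at the 2 ages. At 48 hpf it had 17, 15 and 13 counts in wild-type and 12, 10 and 8 in mutant-labelled libraries (log2 fold change -0.50, SE 0.36). At 72 hpf it had 13, 15 and 12 against 50, 35 and 34 counts. This was 0.714 ± 0.109 against 2.13 ± 0.402 CPM as mean and SD of 3 libraries (log2 fold change 1.57, SE 0.31). The call at 72 hpf held in 6 of 12 fits that each left out 1 library (edgeR adjusted p from 0.02075 to 0.2094). Germ cell markers overlapped between the genotypes at 72 hpf. The summed level of 5 genes was 4.31 to 5.40 CPM in wild-type and 4.54 to 6.43 CPM in mutant-labelled libraries. None of the 5 was at 0 throughout, but ca15b and dnd1 did not pass the count filter and were not tested. The 3 tested ones, piwil1, ddx4 and nanos3, are also in the next list, so the lists are not separate. Of 9 tested genes of the piRNA pathway and germ line, edgeR, DESeq2 and limma-voom called 0 at either age. At an unadjusted p under 0.05 there were 0 at 48 hpf and 1 higher at 72 hpf. The highest 72 hpf value of the 9 was that of tdrd6 (log2 fold change 0.99, SE 0.45). This gene lies on chromosome 20 itself, at place 58, beyond vsnl1a.

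fam102bb, which overlaps henmt1, was lower at 48 hpf in the mutant-labelled libraries. It stood at 5.81, 6.64 and 7.77 CPM in wild-type and 3.35, 4.17 and 3.59 CPM in mutant-labelled libraries (log2 fold change -0.87, SE 0.17). At 72 hpf the genotypes overlapped, with 8.93, 7.39 and 7.86 against 7.12, 7.49 and 6.49 CPM (log2 fold change -0.20, SE 0.15). Of the 2 overlapping genes, fam102bb was thus called at the age at which henmt1 was not, and henmt1 at the other. None of the relatives fam102aa, fam102ab and fam102ba was called.

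sccpdhb, named for its likeness to saccharopine dehydrogenase, was lower at both ages and had the smallest adjusted p of the member rows at 48 hpf. It stood at 32.4, 29.7 and 29.6 CPM in wild-type and 18.2, 18.4 and 18.6 CPM in mutant-labelled libraries (log2 fold change -0.73, SE 0.10). By 72 hpf levels were 18.3, 17.3 and 17.8 against 14.3, 13.2 and 12.6 CPM (log2 fold change -0.41, SE 0.10). The genotypes did not overlap at either age, and mutant-labelled embryos at 48 hpf had 60.2% of the wild-type mean. The overlapping gene cnstb also had a negative value at 48 hpf (log2 fold change -0.84, SE 0.22), but 0.02 at 72 hpf, and it was called at neither age. The relatives sccpdha.1 and sccpdha.2 on another chromosome were not called.

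slc25a24 encodes a carrier of the mitochondrial inner membrane that exchanges ATP-Mg for phosphate. At 48 hpf it stood at 55.7, 46.3 and 56.8 CPM in wild-type and 40.4, 38.1 and 41.7 CPM in mutant-labelled libraries (log2 fold change -0.40, SE 0.10). At 72 hpf the levels were 17.8, 20.2 and 16.9 against 14.1, 14.6 and 15.9 CPM (log2 fold change -0.30, SE 0.11). The groups stood apart at both ages by a narrow margin at 72 hpf. Its call at 48 hpf was the one nearest to the threshold among the members. It held in 1 of 12 fits that each left out 1 library, the one without wild-type 48 hpf replicate 2 (edgeR adjusted p from 0.0104 to 0.148). It was also lost with RLE factors, with library totals and when that age was fitted alone (edgeR adjusted p = 0.0512, 0.114 and 0.21). The relatives slc25a23a, slc25a23b, slc25a25a and slc25a25b were called at neither age.

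acat2 encodes a thiolase that joins 2 acetyl-CoA units, the step before the mevalonate pathway of cholesterol synthesis. At 48 hpf the genotypes overlapped, with 21.2, 30.2 and 31.6 CPM in wild-type and 29.3, 25.7 and 22.9 CPM in mutant-labelled libraries (log2 fold change -0.09, SE 0.16). At 72 hpf the levels were 35.5, 36.6 and 29.2 against 22.8, 17.4 and 17.9 CPM, with no overlap (log2 fold change -0.80, SE 0.15). Its 72 hpf call held in 8 of 12 fits that each left out 1 library (edgeR adjusted p from 0.00844 to 0.197). With a replicate block the call was lost (edgeR adjusted p = 0.062). Of 22 genes of mevalonate and cholesterol synthesis, edgeR called hmgcra and fdps higher and 0 lower at 48 hpf, against 1.04% and 2.0% of all tested genes, with a median log2 fold change of 0.41. hmgcra, which encodes a form of the rate-limiting reductase of the pathway, went from a mean of 2.90 to 7.25 CPM, and fdps from 75.9 to 118 CPM. The other reductase gene of the list, hmgcrb, had the higher level and was not called. It stood at means of 32.37 and 32.65 CPM at 48 hpf in wild-type and mutant-labelled libraries (log2 fold change 0.01, SE 0.11). DESeq2 called 5 higher and limma-voom 2, and 12 of the 22 had an unadjusted p under 0.05, all of them higher, against 7.94% higher over all tested genes. At 72 hpf the median was -0.09, edgeR and limma-voom called 0, DESeq2 called 1 lower, and 3 had an unadjusted p under 0.05, all of them lower. acat1, acaa1 and acaa2, of the same enzyme family, were called at neither age.

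Over all relatives of the members by sequence family, 24 were tested and edgeR, DESeq2 and limma-voom called 0 at either age. Without adjustment 2 had a p under 0.05 at 48 hpf, 1 in each direction, and 6 at 72 hpf, of which 5 were higher. Their median log2 fold changes were 0.0046 and 0.09. One of them, hpcal1, lies in the stretch near mycn, at place 24 on the side of acat2. When each age was fitted alone, 2 of the relatives were called at 72 hpf.

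Within the stretch from acat2 to vsnl1a, the genes on either side of the threshold were as follows. At 48 hpf the gene just inside was slc25a24 (log2 fold change -0.40, adjusted p = 0.0471 in edgeR), and the genes just outside were cd164 and cnstb (log2 fold changes -0.36 and -0.84, adjusted p = 0.0548 for each in edgeR). At 72 hpf henmt1 lay just inside (log2 fold change 1.57, adjusted p = 0.0341 in edgeR) and sccpdhb just outside (log2 fold change -0.41, adjusted p = 0.0921 in edgeR).

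Besides the members and mycn, 2 genes placed in the stretch were called, pdia6 and BX279523.1. Another 2468 tested genes had no place in the gene order, with 90 called at 48 hpf (3.65%) and 9 at 72 hpf (0.365%). Any of these that lie in the stretch are not counted here. BX279523.1, at place 36 beside slc25a24, is a gene with a clone name that the files do not describe further. It had 17, 19 and 31 counts in wild-type and 3, 0 and 4 in mutant-labelled libraries at 48 hpf, and 68, 72 and 65 against 5, 0 and 1 at 72 hpf. Reads were thus nearly absent from the mutant-labelled libraries, whose means were 10.6% of the wild-type mean at 48 hpf and 2.89% at 72 hpf. pdia6, at place 25 on the side of acat2, was higher in the mutant-labelled libraries at 48 hpf, with 102, 75.1 and 81.8 CPM in wild-type and 131, 115 and 129 CPM in mutant-labelled ones (log2 fold change 0.53, SE 0.11). At 72 hpf the order was the opposite, with 125, 133 and 118 against 105, 108 and 94.9 CPM (log2 fold change -0.29, SE 0.11), and this was not called.

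The nearest placed genes to mycn were not among those called. These were ddx1, nbas, lratd1, scml4 and sec63 on one side and smek1, erh, paplnb, drc1 and kcnf1a on the other. ddx1, an RNA helicase gene next to mycn, had log2 fold changes of 0.13 (SE 0.11) and 0.16 (SE 0.11) at 48 and 72 hpf. smek1, next on the other side, had 0.04 (SE 0.09) and -0.0068 (SE 0.09). kcnf1a, a potassium channel gene, had -0.46 (SE 0.21) and -0.82 (SE 0.22), with no overlap between the genotypes at either age. Higher and lower genes were interspersed along the order. Most called genes had neighbours that were not called, and the adjacent ones were henmt1 beside fam102bb and BX279523.1 beside slc25a24, each pair counting a call at either age.

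**Figure D2:**
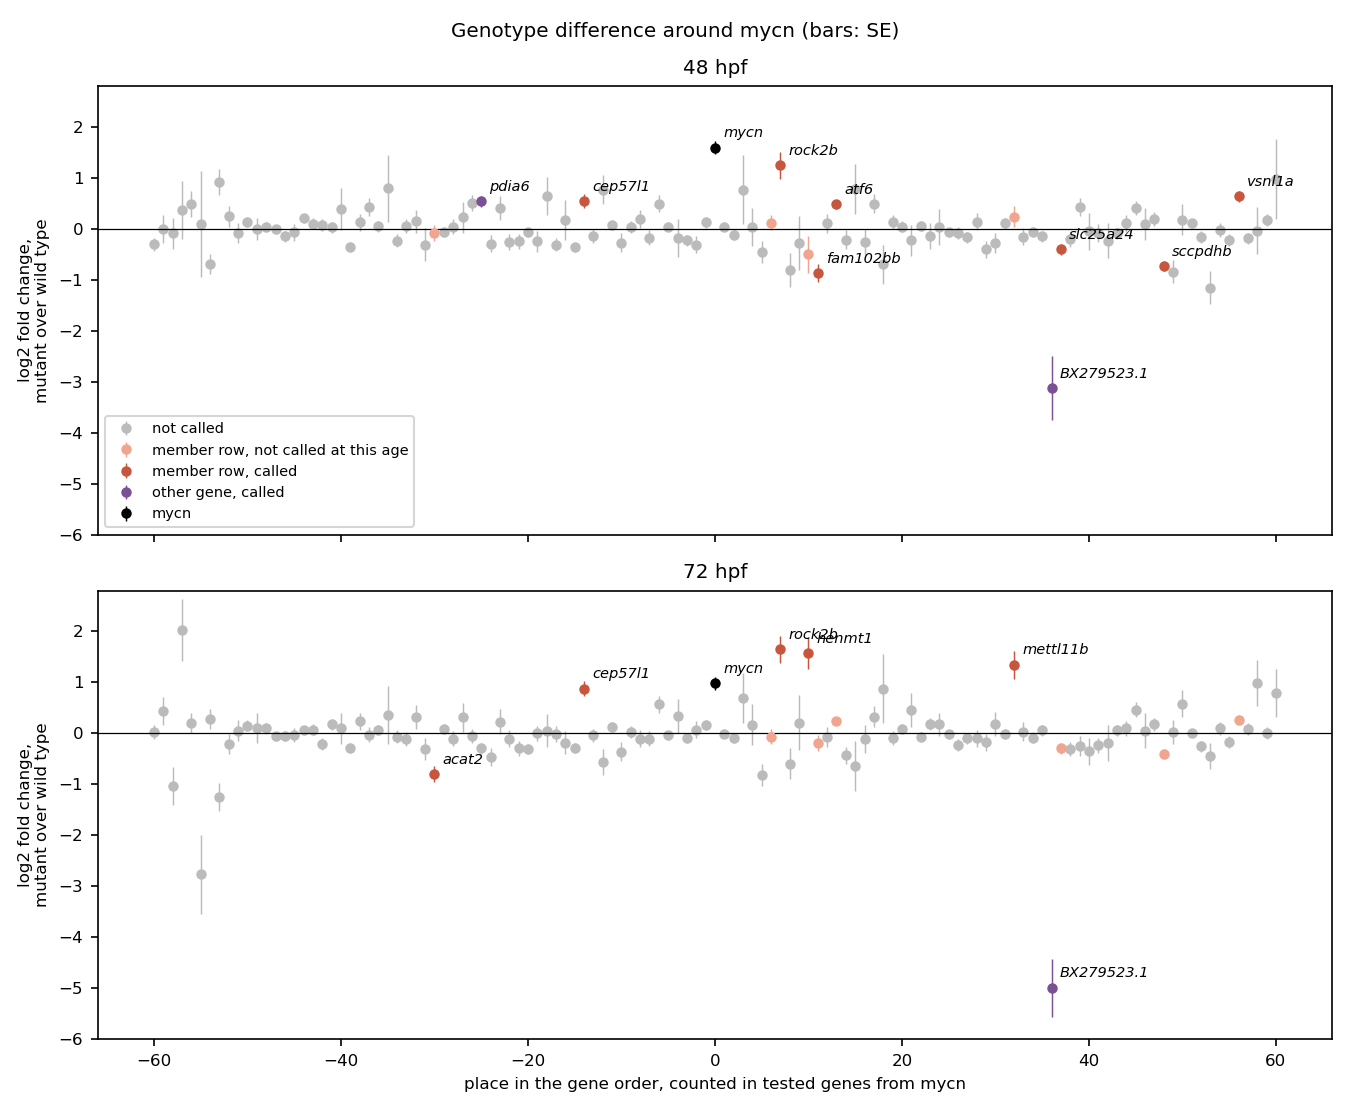
Log2 fold change of mutant-labelled over wild-type libraries (vertical axis, bars are SE) for the tested genes within 60 places of mycn (horizontal axis, place in the gene order), at 48 hpf above and 72 hpf below. Called members (red), other called genes (purple) and mycn (black) are named, and members not called at that age are pale red; the named genes are scattered among grey points that were not called, and BX279523.1 is the lowest point at both ages.

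The share of called genes was also counted by place on the chromosome. Within 50 tested genes of mycn on each side, 8 of 100 were called at 48 hpf and 6 of 100 at 72 hpf, of which 6 and 5 were member rows. Without member rows 2 of 90 were called at 48 hpf (2.22%) and 1 of 90 at 72 hpf (1.11%). Members were chosen as called genes, so taking them out lowers these shares by construction, and nothing is read from them. Over all tested genes without mycn the shares were 3.04% and 0.551%. vsnl1a, at place 56, lies outside these 50 places. From place 51 to 100 the counts were 4 of 100 and 0 of 100, and in the next 100 places on each side they were 9 of 200 at each age. Farther away on the chromosome 15 and 2 of 388 were called, and on other chromosomes 514 and 90 of 17811, or 2.89% and 0.505%. Without the member rows and mycn, 3.73% of 777 tested genes on the chromosome were called at 48 hpf and 1.54% at 72 hpf. With the members and without mycn, chromosome 20 had the highest share of the 25 chromosomes at 72 hpf, 2.16% against 0.00% to 0.990% on the others, and the second highest at 48 hpf, 4.57% against up to 5.32%. The members were chosen as called genes of this chromosome, so nothing is read from these ranks. Without them its 3.73% at 48 hpf was below chromosomes 22, 7, 1 and 13, with 5.32%, 4.30%, 4.24% and 3.74%. Its 1.54% at 72 hpf was above the 0.990% of the next chromosome. Only chromosome 20 lost called genes in this step, so nothing is read from these ranks either. These are shares of calls, with no test of a difference between chromosomes.

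**Figure D3:**
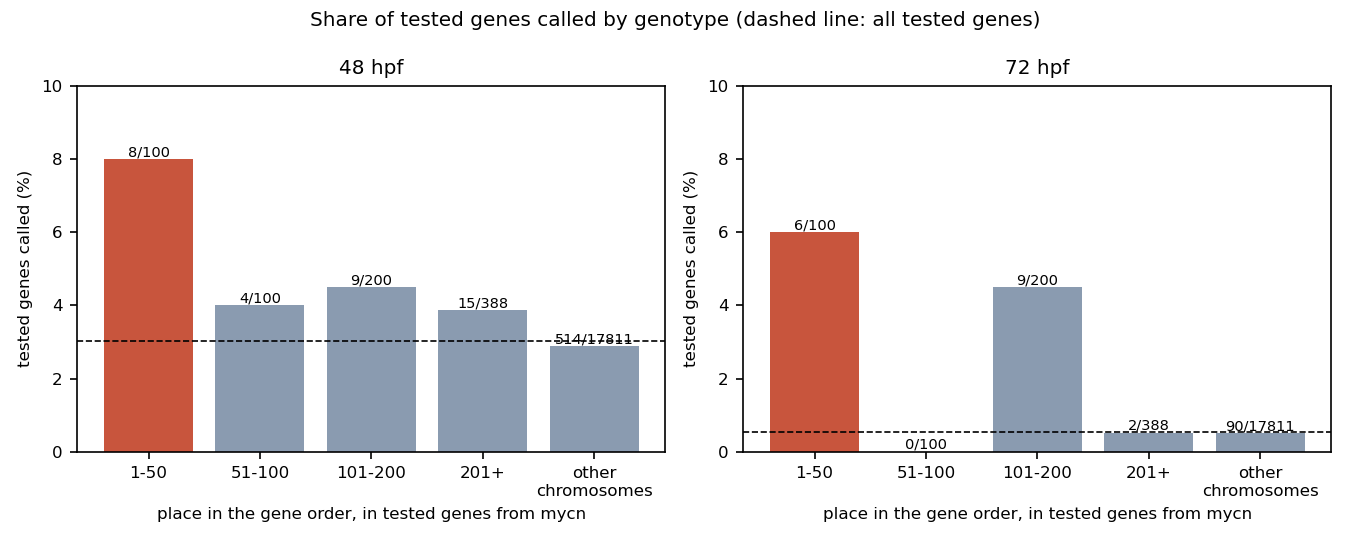
Percent of tested genes called for genotype (vertical axes, from 0) by place in the gene order from mycn and on other chromosomes, at 48 hpf (left) and 72 hpf (right), with called and tested genes above each bar and the share of all tested genes as a dashed line. The nearest 100 genes, which hold most members, have 8 and 6 called, and without member rows 2 and 1 of 90. The counts without member rows are lowered by the choice of members as called genes. At 48 hpf the other bins of the chromosome also stand above the line of 3.04%, at 4.0%, 4.5% and 3.87% in order of distance. At 72 hpf the next bin but one also does, with 9 of 200.

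The comparisons at 48 and at 72 hpf share no library, so their directions can be set side by side. Of the 11 member rows 9 had the same sign at both ages, and henmt1 and the larger row of rock2b had opposite signs. Over all tested genes 55.0% had the same sign. Among the nearest 100 genes, 7 of the 8 called at 48 hpf had the same sign at 72 hpf, and 3 were called at both ages in the same direction. Most of these were member rows. Without member rows, 1 of the 2 called at 48 hpf had the same sign, and 1 was called at both ages in the same direction. Over all tested genes without mycn, 63.4% of those called at 48 hpf had the same sign at 72 hpf. Of these 21067 genes, 13 were called at both ages in the same direction, the nearest ones included. Since genes entered the list through a call at either age, the member counts and those of the nearest 100 genes are a description only.

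The change with age was not used to choose the members and was tested as the mean of both genotypes at 72 hpf against the mean of both at 48 hpf. Of the 11 rows 8 were called, 4 higher and 4 lower at 72 hpf, against 78.7% of all tested genes, or 39.3% higher and 39.4% lower, so the share of members called is near the background. vsnl1a rose the most, by 3.06 on the log2 scale (SE 0.08, edgeR adjusted p = 6.8e-15), from a mean of 16.0 to 152 CPM in wild-type and from 24.9 to 183 CPM in mutant-labelled libraries. Of its 8 tested relatives 7 rose and 1 fell. vsnl1b rose by 2.75, ncaldb by 2.77, ncs1b by 2.13, hpcal4 by 1.98 and hpca by 1.78 on the log2 scale, ncs1a and ncalda by 0.46 and 0.27, and hpcal1 fell by 0.57 (edgeR adjusted p from 1.64e-13 for hpca to 2.07e-03 for ncalda). The 5 neuron markers included 4 that rose and 1 that fell.

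atf6 and fam102bb also rose with age, by 0.76 (SE 0.06, edgeR adjusted p = 7.37e-09) and 0.59 (SE 0.11, edgeR adjusted p = 1.73e-04) on the log2 scale. The relatives of fam102bb went the other way. fam102ba, fam102aa and fam102ab had log2 values of -1.07, -1.88 and -1.97 (edgeR adjusted p = 1.03e-06, 1.28e-08 and 2.71e-10). Of the 29 genes of the unfolded protein response 15 rose and 7 fell, against 39.3% and 39.4% of all tested genes. henmt1 passed as a rise of 0.66 (SE 0.24, edgeR adjusted p = 0.0187), but within wild type its value was -0.37 (SE 0.34) and within the mutant-labelled libraries 1.70 (SE 0.33). Its call was lost without wild-type 72 hpf replicate 2, mutant-labelled 48 hpf replicate 3 or mutant-labelled 72 hpf replicate 1 (edgeR adjusted p = 0.0522, 0.0508 and 0.0522).

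mettl11b fell by 1.94 on the log2 scale (SE 0.17, edgeR adjusted p = 1.8e-08), from 5.56 to 0.984 CPM in wild-type and from 6.55 to 2.49 CPM in mutant-labelled libraries. slc25a24 fell by 1.48 (SE 0.08, edgeR adjusted p = 2.55e-11), cep57l1 by 1.04 (SE 0.10, edgeR adjusted p = 4.12e-08) and sccpdhb by 0.62 (SE 0.07, edgeR adjusted p = 3.34e-07). Among genes of the centriole and centrosome 9 of 13 fell and 1 rose, and among relatives of the members 11 of 24 fell and 10 rose. Over all tested genes 39.4% were called lower and 39.3% higher at 72 hpf. acat2 and both rows of rock2b did not pass, with log2 values of -0.07 (SE 0.11), -0.10 (SE 0.10) and -0.20 (SE 0.19). With library totals in place of TMM scaling these 3 values turned to 0.31, 0.28 and 0.18, while the median of all genes moved from -0.0046 to 0.37. acat2 and the larger row of rock2b then passed as higher at 72 hpf (edgeR adjusted p = 0.015 and 0.0221), which made 10 of the 11 rows called. In 7 of the 8 called rows the age difference had the same sign in both genotypes, and henmt1 was the exception.

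**Figure D4:**
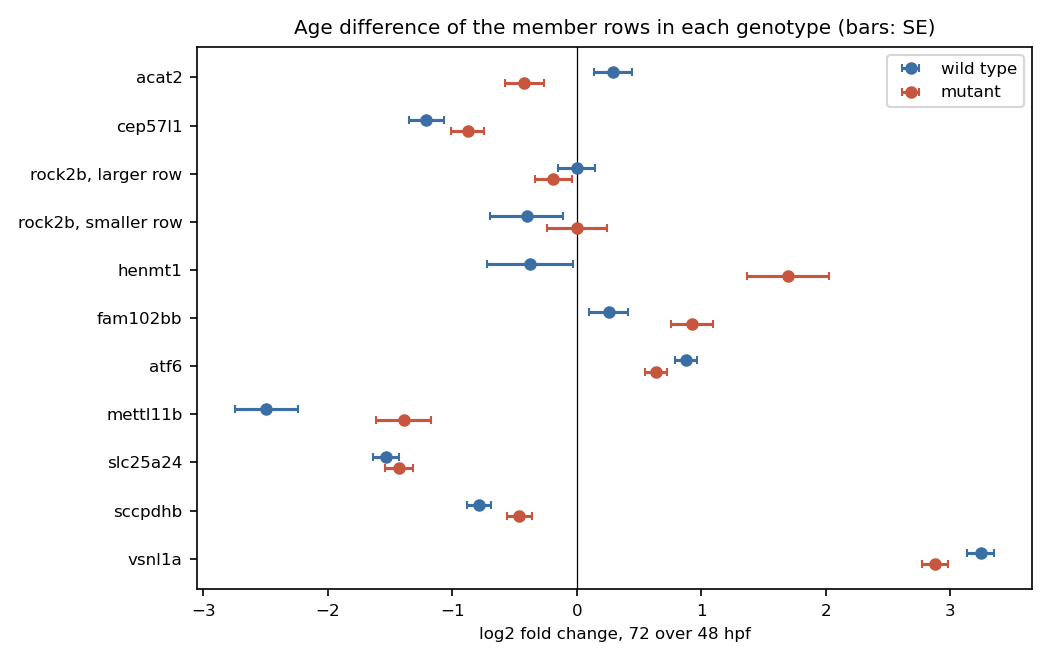
Log2 fold change of 72 over 48 hpf (horizontal axis) for each member row in wild-type and mutant-labelled libraries, with SE as bars. vsnl1a lies farthest right and mettl11b farthest left in wild type, and henmt1 and acat2 lie on opposite sides of 0 in the 2 genotypes. The smaller rock2b row does so barely, at -0.40 in wild-type and 0.0015 in mutant-labelled libraries.

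The genotype calls of several members changed with the libraries in the fit, and the cause was not tested. With the 6 libraries of 48 hpf fitted alone, 1 of the 7 members called at that age kept its call, sccpdhb (edgeR adjusted p = 0.0277), while the log2 fold changes of the others changed by less than 1 SE. With the 6 libraries of 72 hpf alone, 6 member rows were called, sccpdhb being added. When one 72 hpf library was left out of the fit of all groups, fewer of the 5 rows passed at that age by edgeR. The count was 0 without wild-type replicate 2 or mutant-labelled replicate 3, 1 without wild-type replicate 1, 2 without mutant-labelled replicate 1 or replicate 2, and 3 without wild-type replicate 3. At 48 hpf the count fell from 7 to 4 without mutant-labelled 48 hpf replicate 1 or replicate 3.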

How the data were processed

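RNA of whole embryos was counted in 12 libraries, 3 per group, and samples were grouped by their titles. The deposited values are raw counts per Ensembl gene, not normalized, with a symbol beside each identifier per the file header. STAR, featureCounts, DESeq2 and build GRCz11 are named in the submitters' processing notes without role or version; strand use and annotation release are not stated in these sources. Genes were kept by filterByExpr at a minimum count of 10. All 12 libraries entered one edgeR 4.0.16 quasi-likelihood model (R 4.3.3) with TMM scaling, and p-values were adjusted by Benjamini-Hochberg over 21068 genes. Log2 fold changes and their standard errors come from this model. DESeq2 1.42.0 and limma-voom (limma 3.58.1), RLE factors, library totals, no low-count filter, a replicate block, models of one age and leaving out each library were tried as alternatives. The calling step was tested on simulated counts.

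Members and lists were chosen with earlier results of these data known. Genes were named as follows: mycn, the members, the 5 nearest tested genes on each side, other called genes in the stretch, listed relatives, up to 3 called genes per pathway list, and genes beside the threshold. snap25a and tdrd6 were also named, for their place on the chromosome, and hmgcrb as the other reductase gene beside hmgcra. Gene order came from the RefSeq table of GRCz12tu, in which 88.3% of tested genes were placed by symbol or synonym. No sequence was at hand for the planned promoter motif count, which was not made. No 2 replicates held identical values, and pairs differed by more than sampling noise (chi-square per degree of freedom 4.14 to 49.7). Floors cover counting error only. One pathway list is not reported here, although the total over the lists includes it.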

Additional observations from a re-analysis of the deposited data

Results flagged for a closer look

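For henmt1 the mutant-labelled libraries all lay below the wild-type ones at 48 hpf (log2 fold change -0.50) and all above them at 72 hpf (log2 fold change 1.57). pdia6 did the opposite, with all mutant-labelled libraries above at 48 hpf (log2 fold change 0.53) and all below at 72 hpf (log2 fold change -0.29). The difference between ages was not tested for either gene, because calls at the 2 ages chose them. Groups of 3 libraries were not tested for single libraries that stand apart.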

How the results depend on the processing

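Over all genes the calls at 48 hpf numbered 641 and at 72 hpf 117. DESeq2 gave 1063 and 260, limma-voom 195 at 72 hpf, and models of one age 74 and 793. Without single libraries the counts ranged from 222 to 1133 and from 24 to 195, and from 16296 to 16831 for age. Called member rows ranged from 4 to 6 at 48 hpf, from 0 to 5 at 72 hpf and from 7 to 8 for age, without single libraries. Library totals gave 10 for age; models of one age gave 1 at 48 hpf. Called relatives ranged from 0 to 1, 0 to 0 and 21 to 23 without single libraries, with 2 at 72 hpf in the model of that age. The pathway lists together held 6 calls at 48 hpf and 0 at 72 hpf. At 48 hpf library totals gave 13, DESeq2 11, the model of one age 0, and single libraries left out 2 to 12; at 72 hpf DESeq2 gave 1 and the model of one age 5. Over all genes 219 were higher and 422 lower at 48 hpf, but 453 and 287 with library totals. The share of the nearest 100 genes called, member rows included, was 8.0% at 48 hpf and 6.0% at 72 hpf. The model of one age gave 1.01% and 13.1%, leaving out libraries 3.0% to 10% and 1.0% to 6.0%. With 100 genes on each side the share at 72 hpf was 3.0%, with 200 it was 5.25% and 3.75%, and over the whole chromosome 4.57% and 2.16%. Of the nearest genes called at 48 hpf, 3 to 8 kept their sign at 72 hpf without single libraries, and 1 of 1 in the models of one age. The cause of these shifts was not tested, and the fits with libraries left out also held fewer libraries.

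A replicate block left 74 genes, 2 member rows and 3.0% of the nearest genes at 72 hpf, and 5 member rows at 48 hpf, without cep57l1 and slc25a24 (edgeR adjusted p = 0.0537 and 0.0791). Same-numbered libraries did not deviate together (correlations -0.155 to 0.0233), and 8 of 36 comparisons gave the best correlation to the library's own number. Pairing by number was thus not seen, but a check with 3 libraries per group cannot exclude it. Without single libraries the log2 value at 48 hpf ranged from -0.249 to 0.028 for acat2, turning sign without wild-type 48 hpf replicate 3 (0.028) or mutant-labelled 48 hpf replicate 3 (0.0065). For the larger rock2b row it ranged from -0.049 to 0.246, turning sign without the latter. With library totals the age values turned for mycn (0.14), acat2 (0.31) and both rock2b rows (0.28 and 0.18). Bins of distance in base pairs were not run, because the gene table is of another build. Genes with few counts, such as henmt1, are limited by depth.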

Other observations

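Farther from mycn, between places 102 and 195 in the gene order, 9 genes were called at 72 hpf, and they are listed here after their values were seen. sgcb, a sarcoglycan gene, stood at 26.3 ± 1.48 CPM in wild type at 72 hpf, against 11.3 ± 2.04 CPM with the mutant label (SD, n = 3 each). ociad2, 2 places from sgcb, stood at 23.6 ± 1.96 and 9.21 ± 0.614 CPM. cyp2p9, a cytochrome P450 gene, was higher in the mutant-labelled libraries, with 3.35 ± 0.813 and 17.3 ± 1.60 CPM. Another gene of that family, cyp2ad3, was called lower at 48 hpf (log2 fold change -0.74) and higher at 72 hpf (log2 fold change 0.56). gmds, which encodes an enzyme of GDP-fucose synthesis, was called higher at 48 hpf (log2 fold change 0.44) and lower at 72 hpf (log2 fold change -0.78). The other four were serpinb1, itpk1a and si:ch211-243j20.2, which were lower at 72 hpf, and AL929237.1, which was higher.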
